A study of Mus musculus with 8 samples.

Results

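MHC class I presentation was followed through 10 genes: Nlrc5, Tap1, Tap2, Tapbp, Psmb8, Psmb9, Psmb10, B2m, H2-K1 and H2-D1. They were taken by gene symbol from the annotation of an Illumina mouse beadchip, and all 10 were present, on 15 of its 25697 probes. Of these probes 14 were detected well enough to be tested, which covered all 10 genes among 10184 genes tested in all. RNA came from whole colons of 8 C57BL/6 mice, 4 per genotype, and no sex or age was given in the labels. Knockout mice were Villin-CreERT2-Ihhfl/fl, with both copies of Ihh (Indian hedgehog, a ligand released by the gut epithelium) flanked by sites for the Cre recombinase. Wildtype mice were Villin-CreERT2-Ihh+/+, so both genotypes carried the tamoxifen-activated recombinase under the epithelial Villin promoter. Both also received 1 mg tamoxifen by injection on each of 5 days, and colons were collected on day 7. The comparison asks how these genes differ in the whole colon when Ihh is targeted in its epithelium alone.

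MHC class I molecules show peptides from inside the cell to cytotoxic T cells and natural killer cells. The immunoproteasome, in which inducible catalytic subunits take the place of the constitutive ones, cuts proteins into fitting peptides, the TAP transporter moves them into the endoplasmic reticulum, and tapasin holds empty class I chains beside the transporter until a peptide binds. Interferons switch on most of these genes, partly through NLRC5, a transactivator that acts at class I promoters with factors already bound there, and the gut epithelium is among the tissues that present on class I.

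Promoter sequences are shown for 4 genes whose values lay apart between genotypes. They are the class I heavy chain genes H2-K1 and H2-D1 and their light chain B2m, whose windows hold the same kinds of motif, and Tap1, whose window is largely that of Psmb9 too. RefSeq windows of 300 bases on build GRCm38.p6, from 250 before to 50 after an annotated start, were at hand for 8 of the 10 genes, the exceptions being Nlrc5 and Tap2. Capitals mark, on either strand, the interferon regulatory factor core AANNGAAA, the CRE core TGACG, the CCAAT box, and matches to the kappaB consensus bound by NF-kappaB factors, none of which overlap another of these motifs.
H2-K1 (chr17:34000298-34000597, minus strand): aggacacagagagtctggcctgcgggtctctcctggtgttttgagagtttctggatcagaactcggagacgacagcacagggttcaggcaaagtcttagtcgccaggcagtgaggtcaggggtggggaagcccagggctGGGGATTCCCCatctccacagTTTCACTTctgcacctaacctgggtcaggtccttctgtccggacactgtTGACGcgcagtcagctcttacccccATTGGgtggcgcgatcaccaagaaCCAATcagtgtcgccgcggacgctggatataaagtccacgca
H2-D1 (chr17:35262844-35263143, plus strand): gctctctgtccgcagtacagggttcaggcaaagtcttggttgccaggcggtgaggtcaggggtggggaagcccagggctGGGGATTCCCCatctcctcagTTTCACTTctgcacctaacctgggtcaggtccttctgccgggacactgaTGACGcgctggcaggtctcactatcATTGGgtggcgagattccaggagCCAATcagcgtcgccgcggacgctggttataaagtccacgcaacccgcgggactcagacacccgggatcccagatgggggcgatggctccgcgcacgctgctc
B2m (chr2:122147437-122147736, plus strand): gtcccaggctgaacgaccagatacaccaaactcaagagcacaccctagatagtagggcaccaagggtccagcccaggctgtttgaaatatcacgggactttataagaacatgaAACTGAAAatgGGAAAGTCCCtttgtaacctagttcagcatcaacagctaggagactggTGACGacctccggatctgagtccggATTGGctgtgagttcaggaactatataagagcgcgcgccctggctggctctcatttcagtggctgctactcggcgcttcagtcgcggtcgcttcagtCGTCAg
Tap1 (chr17:34187306-34187605, plus strand): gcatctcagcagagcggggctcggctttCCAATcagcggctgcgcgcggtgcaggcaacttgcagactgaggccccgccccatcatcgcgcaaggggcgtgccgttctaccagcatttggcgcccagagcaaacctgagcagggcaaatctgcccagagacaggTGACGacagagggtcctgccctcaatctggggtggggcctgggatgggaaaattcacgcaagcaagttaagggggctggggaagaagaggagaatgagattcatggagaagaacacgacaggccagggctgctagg
The H2-K1 and H2-D1 windows were 90.4% identical over 228 aligned positions, and both held, in the same order, the kappaB match, the interferon core, the CRE core and 2 CCAAT boxes. B2m held all 4 kinds of motif as well, with the interferon core before the kappaB match. Tap1 and Psmb9 are transcribed away from each other from start sites 226 bases apart, so 275 of the 300 bases of their windows are the same, and the single CRE core and CCAAT box in the Tap1 line are also those of Psmb9. Of the 8 windows, 3 held the interferon core and the same 3 the kappaB match, found in 24.2% and 8.18% of the windows of all 27025 genes. The CRE core was in 5 (21.0% of all) and the CCAAT box in 6 (37.9% of all). The interferon gamma activated site TTCNNNGAA was in 1 of 8, that of Psmb8 (8.47% of all). Such a match describes letters and is not a measured site.

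Several properties of the samples touch the results. Mean probe intensity was 902 to 1258 per array, 14465 to 15040 probes were detected, and pairwise correlations between arrays were 0.943 to 0.985. All 10 colon epithelium markers and all 8 smooth muscle markers on the array were tested, while skeletal muscle transcripts were high in 2 mice of each genotype. Sex-linked transcripts showed a male pattern in 1 of 4 wildtype mice and in 3 of 4 knockout mice, knockout 1 being the exception, so genotype and sex are partly aligned. Wildtype arrays lay at positions 1 to 4 of the beadchip and knockout arrays at 5 to 8. Genotype and position therefore cannot be told apart in full, also not by a fit with array position as a term. For Ihh, the targeted gene, log2 intensity averaged 10.4 ± 0.153 over wildtype and 9.34 ± 0.245 over knockout colons (SD, n = 4 each), without overlap, and whether its probe lies in the deleted part is not known here. Colons were treated as separate mice because titles number them, and p-values set the genotype difference against the spread between these samples.

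The class I genes lay mostly above wildtype in the knockout colons, led by Nlrc5, Tap1 and the immunoproteasome subunits Psmb8 and Psmb9. All 10 had a higher mean in the knockout, as did 49.1% of all genes tested, and they differed by 0.00079 (Tapbp) to 1.61 (Nlrc5) on the log2 scale, with a median of 0.43 against -0.0047 over all genes tested. In 7 of the 10 the 4 knockout values all lay above the 4 wildtype values, an arrangement found in 4.85% of all genes tested. None passed the threshold of an adjusted p under 0.05 in limma, a linear model fitted to all tested probes at once. That threshold was passed by 2 of 10184 genes (0.0196%). Ihh, the targeted gene, differed by -1.05 and did not pass it either (limma adjusted p = 0.130). At an unadjusted limma p under 0.05, 7 of the 10 were higher and 0 lower, where 6.70% of all genes were higher and 4.34% lower. With 4 mice against 4, an exact permutation test of a single gene cannot give less than 0.0286. Any gene without overlap reaches that value, as these 7 did, so it adds nothing to the lack of overlap. The 10 genes were chosen with earlier results of these data known. Their shares beside those of all genes are therefore a description and not a test.

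**Figure D1:**
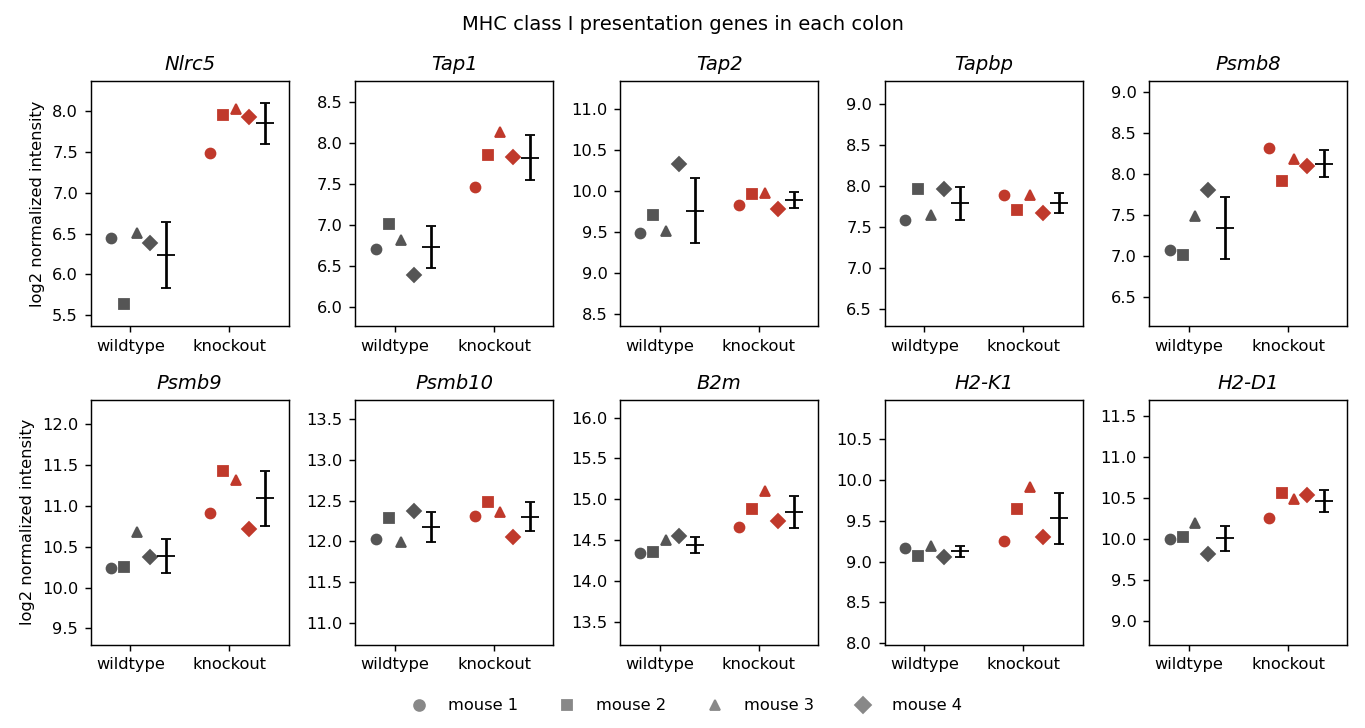
Log2 normalized intensity (y axis, each panel spanning 3 log2 units) of each gene in the 4 wildtype (grey) and 4 knockout (red) colons; marker shapes give the mouse number within its genotype, and bars show the mean ± SD. The genotypes do not overlap for Nlrc5, Tap1, Psmb8, Psmb9, B2m, H2-K1 and H2-D1, and overlap for Tap2, Tapbp and Psmb10.

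Nlrc5, the transactivator of class I genes, had the widest separation of the members. Log2 intensities were 6.44, 5.64, 6.51 and 6.38 in wildtype 1 to 4 and 7.48, 7.96, 8.03 and 7.93 in knockout 1 to 4. The lowest knockout colon was thus almost 1 log2 unit above the highest wildtype colon, and wildtype 2 was the lowest of all. The means of 6.24 ± 0.405 and 7.85 ± 0.247 (SD, n = 4 each) differed by 1.61 (SE 0.214, 95% interval 1.12 to 2.09), a 3.05-fold higher signal. Its limma p, 3.65e-05 before and 0.130 after adjustment, ranked 4 among 14754 probes tested. The transcript was dim, with raw intensities of 189 to 260 in wildtype and 317 to 472 in knockout colons. Values this close to background depend on how background is removed: without background correction the difference was 0.76 (limma adjusted p = 0.0804), and the genotypes still did not overlap. Without knockout 1 the difference was 1.73 and passed (limma adjusted p = 0.0497). This was the only setting of those tried in which a class I member passed. In that setting all remaining knockout colons showed a male pattern, against 1 of 4 wildtype colons, so sex and genotype were more closely aligned than in the full set. The part of sex in that result was not tested. With the sex pattern as a term in the fit to all colons, Nlrc5 differed by 1.42 (limma adjusted p = 0.653).

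Of the peptide transporter's parts, Tap1 was separated between genotypes and Tap2 was not. Tap1 had log2 intensities of 6.71, 7.01, 6.82 and 6.39 in the wildtype and 7.46, 7.86, 8.13 and 7.83 in the knockout colons. Every knockout colon lay above every wildtype colon, and the difference was 1.09 (SE 0.180, 95% interval 0.68 to 1.50, limma adjusted p = 0.191), or 2.13-fold. Without background correction it was 0.56 (limma adjusted p = 0.188). Tap2, the partner chain of TAP1, had 9.48, 9.70, 9.51 and 10.33 in wildtype and 9.83, 9.96, 9.98 and 9.78 in knockout colons. Wildtype 4 was the highest of all 8, and the other wildtype colons were below the knockouts. The Tap2 difference was 0.13 (SE 0.190, 95% interval -0.30 to 0.56, limma adjusted p = 0.807). It was 0.32 without wildtype 4 and turned to -0.31 with array position as a term. Within each colon the log2 ratio of Tap1 to Tap2 was higher by 0.96 (SE 0.327) in the knockout with no overlap, a contrast chosen after the values were seen and given without a test. Without background correction Tap1 differed by 0.56 and Tap2 by 0.11, so the contrast was smaller there.

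Tapbp encodes tapasin, the chaperone that joins class I chains to the transporter. Its brighter probe gave 7.58, 7.96, 7.65 and 7.97 in wildtype and 7.89, 7.71, 7.90 and 7.67 in knockout colons. The genotypes were interleaved, and the difference of 0.00079 (SE 0.133) had a 95% interval of -0.30 to 0.30 (limma adjusted p = 0.999). The second Tapbp probe, annotated to another transcript, differed by 0.15 (SE 0.172, limma adjusted p = 0.740).

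The inducible proteasome subunits were not alike in their separation. Psmb8, which replaces the constitutive subunit Psmb5, had log2 intensities of 7.06, 7.01, 7.49 and 7.81 in wildtype and 8.31, 7.92, 8.18 and 8.09 in knockout colons. The genotypes did not overlap, although wildtype 4 came close to knockout 2. The difference was 0.79 (SE 0.191, 95% interval 0.35 to 1.22, limma adjusted p = 0.294), or 1.72-fold. It was 0.45 without background correction and 0.32 with array position as a term. Psmb9, which replaces Psmb6, had 10.23, 10.25, 10.69 and 10.37 in wildtype and 10.91, 11.43, 11.32 and 10.71 in knockout colons. Knockout 4 exceeded wildtype 3 only narrowly. The Psmb9 difference was 0.71 (SE 0.186, 95% interval 0.29 to 1.13, limma adjusted p = 0.344), or 1.63-fold. It was 0.68 with array position as a term. Psmb10, which replaces Psmb7, had 12.04, 12.28, 12.00 and 12.38 in wildtype and 12.31, 12.49, 12.36 and 12.06 in knockout colons. These overlapped, with knockout 4 low and wildtype 4 high, and the difference was 0.13 (SE 0.140, 95% interval -0.18 to 0.45, limma adjusted p = 0.722). Its other probe gave 0.18. With array position as a term the Psmb10 difference was 0.16.

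The constitutive catalytic subunits were also somewhat above wildtype, by 0.40 for Psmb5 (SE 0.139), 0.19 for Psmb6 (SE 0.123) and 0.25 for Psmb7 (SE 0.165), with limma adjusted p = 0.392, 0.561 and 0.570. To compare each inducible subunit with the one it replaces, the log2 ratio of the pair was formed in each colon. The ratio of Psmb9 to Psmb6 was higher in the knockout by 0.51 (SE 0.236; exact permutation p = 0.0857, two-sided, 0.257 after Benjamini-Hochberg adjustment over the 3 pairs). That of Psmb8 to Psmb5 was higher by 0.38 (SE 0.244; exact permutation p = 0.200, adjusted 0.300), and that of Psmb10 to Psmb7 differed by -0.12 (SE 0.294; exact permutation p = 0.714). In all 3 pairs the genotypes overlapped. The difference of the Psmb8 pair was 0.085 without background correction (exact permutation p = 0.543) and was 0.087 in the authors' processed table, while that of the Psmb9 pair was 0.46 in both. The Psmb8 pair reached exact permutation p = 0.0286 without wildtype 4 (0.60) and the Psmb9 pair without knockout 4 (0.68). With a colon left out, this is the least value the test can give, so it adds nothing to the lack of overlap. In each case the colon left out was the one that made the genotypes overlap. These p-values were not adjusted for the number of colons left out in turn. Psmb8 and Psmb9 are therefore not shown to have shifted more than their constitutive counterparts.

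The class I chains differed by 0.40 to 0.46 on the log2 scale, all without overlap. B2m, the light chain shared by all classical class I molecules, had log2 intensities of 14.35, 14.36, 14.51 and 14.55 in wildtype and 14.66, 14.88, 15.11 and 14.74 in knockout colons. All knockout colons lay above all wildtype colons, with a difference of 0.41 (SE 0.128, 95% interval 0.12 to 0.70, limma adjusted p = 0.386), or 1.33-fold. A second B2m probe gave 0.39 (SE 0.116), again without overlap, and the remaining one was detected on 0 of 8 arrays and not tested. With array position as a term the B2m difference was 0.17, that of H2-K1 0.36 and that of H2-D1 0.39. H2-K1, a classical heavy chain, had 9.17, 9.07, 9.20 and 9.06 in wildtype and 9.25, 9.64, 9.92 and 9.31 in knockout colons. The wildtype values were tightly grouped (SD 0.0699) while the knockouts spread more (SD 0.311), and knockout 1 and 4 lay just above the wildtype range. The H2-K1 difference was 0.40 (SE 0.159, 95% interval 0.045 to 0.76, limma adjusted p = 0.427), and a second probe gave 0.35 (SE 0.155), with overlap. H2-D1, the other classical heavy chain, had 10.02, 10.19 and 9.81 in wildtype 2 to 4, with wildtype 1 just under wildtype 2, and 10.26, 10.56, 10.49 and 10.54 in knockout colons. These did not overlap, and the difference was 0.46 (SE 0.125, 95% interval 0.18 to 0.74, limma adjusted p = 0.353), or 1.37-fold. The class I heavy chain genes are similar in sequence, as the promoter lines above show for the flanking DNA, and cross-binding between their probes was not tested.

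The order of the knockout colons differed between genes. Knockout 3 was the highest knockout for 6 of 10 genes (Nlrc5, Tap1, Tap2, Tapbp, B2m and H2-K1) and knockout 1 the lowest for 5 (Nlrc5, Tap1, B2m, H2-K1 and H2-D1). Knockout 4 was the lowest for Tap2, Tapbp, Psmb9 and Psmb10. For Psmb8 knockout 1 was the highest and knockout 2 the lowest. Among wildtype colons, wildtype 4 was the highest for 5 genes and the lowest for 3. The median of the members, each set relative to its own mean, ran from -0.32 in wildtype 1 to -0.18 in wildtype 4, and from 0.037 in knockout 4 to 0.46 in knockout 3.

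**Figure D2:**
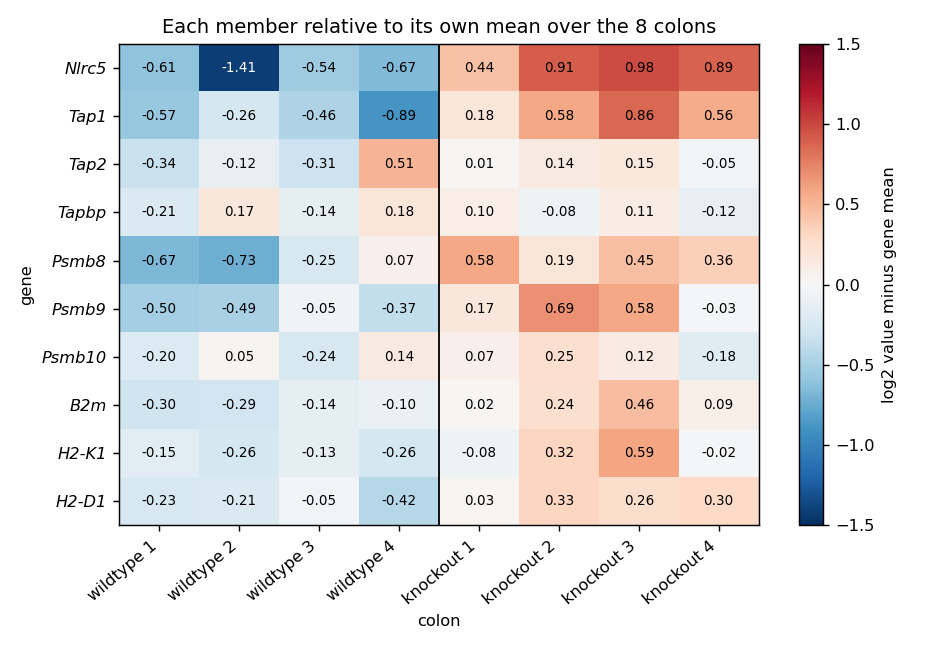
Each gene's log2 value minus its mean over the 8 colons (colour and printed number), with genes in rows, colons in columns and a line between genotypes. Nlrc5 and Tap1 are below 0 in every wildtype and above 0 in every knockout colon, while Tap2, Tapbp and Psmb10 have both signs within a genotype.

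Sex could be set against genotype only thinly. Among the 4 mice with a female pattern (3 wildtype, 1 knockout) the differences were 1.31 for Nlrc5, 0.72 for Tap1, 0.88 for Psmb8 and 0.48 for Psmb9, but 0.19 for B2m, 0.14 for H2-K1 and 0.25 for H2-D1. Among the 4 with a male pattern (1 wildtype, 3 knockout) they were 1.53, 1.24, 1.00 and 0.92 for the first 4 genes and 0.56, 0.45 and 0.53 for the chains. With the sex pattern as a term in the limma fit, the differences were 1.42 for Nlrc5 (adjusted p = 0.653), 0.98 for Tap1 (adjusted p = 0.653), 0.30 for H2-K1 (adjusted p = 0.738) and 0.39 for H2-D1 (adjusted p = 0.703). Psmb9 differed by 0.70 and B2m by 0.38 in that fit. Psmb8 (0.94), Tap2 (0.20), Psmb10 (0.18) and Tapbp (0.10) had larger differences than without the term.

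Other cells that carry class I genes could add to signal from a whole colon, and in such bulk RNA more cells of a type and more RNA per cell cannot be told apart. Of 9 tested T and NK cell markers 7 were higher in the knockout (median 0.21), and their summed normalized intensity was 2779 to 4365 in wildtype and 2672 to 3591 in knockout colons. Cd4, Cd8a, Gzma, Gzmb and Klrk1 were detected on no array. With the T and NK cell score as a term, Nlrc5 differed by 1.52, Tap1 by 1.16, Psmb8 by 0.62 and Psmb9 by 0.65. In that fit B2m differed by 0.33, H2-K1 by 0.35 and H2-D1 by 0.52. Psmb10 differed by 0.062, Tap2 by -0.047 and Tapbp by -0.065. Of 7 tested macrophage, monocyte and dendritic cell markers 7 were higher (median 0.35), with sums of 10069 to 13390 in wildtype and 11499 to 18155 in knockout colons, and Itgax, Xcr1 and Clec9a were detected on no array. B and plasma cell markers were higher in 4 of 5, with sums of 1475 to 3013 and 1864 to 2437, and Ms4a1 was detected on no array. Smooth muscle markers were higher in 0 of 8 (median -0.50), with sums of 88793 to 112262 in wildtype and 64121 to 101818 in knockout colons. Skin and stratified epithelium markers were higher in 0 of 11 tested (median -0.75), with sums of 1813 to 96341 and 2142 to 38071, whereas those of the colon epithelium were higher in 4 of 10 (median -0.020). No gene of these lists passed in limma. The part of the myeloid, B cell, smooth muscle and skin markers in the class I differences was not tested. Among the 4 mice whose skeletal muscle markers were low, the differences were 1.35 for Nlrc5, 1.25 for Tap1, 0.81 for Psmb8, 0.81 for Psmb9, 0.44 for B2m, 0.46 for H2-K1 and 0.47 for H2-D1, and with the skeletal muscle score as a term they were 1.62, 1.07, 0.82, 0.69, 0.41, 0.41 and 0.43.

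The wider pathway was read from lists of related genes, in which 0 genes passed the limma threshold in either direction. Among class I chains outside the members, 13 of 25 listed genes were tested, 7 higher and 6 lower, with a median of 0.046. H2-T10 differed by 0.59 (SE 0.160, limma adjusted p = 0.353) and H2-Q8 by 0.39 (SE 0.122), both nonclassical class I genes, and H2-Q7 by 0.31. Cd1d1, which presents lipids, differed by -0.35 (SE 0.109, limma adjusted p = 0.382), and its knockout values all lay below the wildtype values. Of all 13 tested, only H2-T10, H2-Q8 and Cd1d1 had no overlap, 2 higher and 1 lower. Knockout values lay wholly above wildtype in 4.85% of all genes tested. The share lying wholly below was not computed.

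Peptide supply and loading partners were higher in 7 of 8 tested genes, with a median of 0.20. Calr, the chaperone calreticulin, differed by 0.89 (SE 0.332, limma adjusted p = 0.411) with overlap. Pdia3, the loading complex's disulfide isomerase, differed by 0.30, and Psme1 and Psme2, which form the interferon-induced PA28 cap of the proteasome, by 0.30 and 0.23. Of the 8 tested, Psme2 and Pdia3 did not overlap between genotypes. The constitutive 20S subunits were higher in 12 of 12 (median 0.16), and among them Psma3 differed by 0.31 (SE 0.109), Psmb3 by 0.34 and Psma2 by 0.16. The subunits of the 19S cap, which unfolds substrates for the proteasome, were higher in 16 of 17 (median 0.22), for example Psmd6 by 0.49 (SE 0.118, limma adjusted p = 0.294), Psmd14 by 0.49 (SE 0.158), Psmd11 by 0.38 and Psmd2 by 0.34. The genotypes did not overlap for 2 of the 12 tested 20S subunits, Psma2 and Psma3, and for 4 of the 17 tested 19S subunits. All of these were higher in the knockout, an arrangement found in 4.85% of all genes tested. With array position as a term the 19S median was -0.039.

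Among interferon ligands, receptors and relay genes, 8 of 14 tested were higher and 6 lower, with a median of 0.046. The highest were parts of the factor ISGF3, which carries type I and type III interferon signals: Stat2 differed by 0.94 (SE 0.185, limma adjusted p = 0.198) and Irf9 by 0.67 (SE 0.135, limma adjusted p = 0.200), both without overlap. Ifnar2, a chain of the type I receptor, differed by 0.41 (SE 0.141), again without overlap, and Irf2 by -0.24. Stat2, Irf9 and Ifnar2 were the only 3 of the 14 without overlap, where 4.85% of all genes tested lay wholly above wildtype. Irf1, a factor through which interferon gamma acts on Nlrc5 and class I genes, differed by 0.024 (SE 0.121, limma adjusted p = 0.954). It was singled out after its values were seen. Of the ligands, Ifng was detected on 1 of 8 arrays and Ifnb1 on 0. The list of factors that act at MHC promoters, most of them parts of the complexes through which NLRC5 is held there, had 6 of 8 tested genes higher and a median of 0.054. Nfya differed by 0.15, Rfxank by 0.11 and Rfxap by -0.050. Rfx5 was detected on 0 arrays and not tested. The gene of the list with the smallest p was Ciita, the class II counterpart of Nlrc5, at 0.42 (SE 0.189, limma adjusted p = 0.468).

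**Figure D3:**
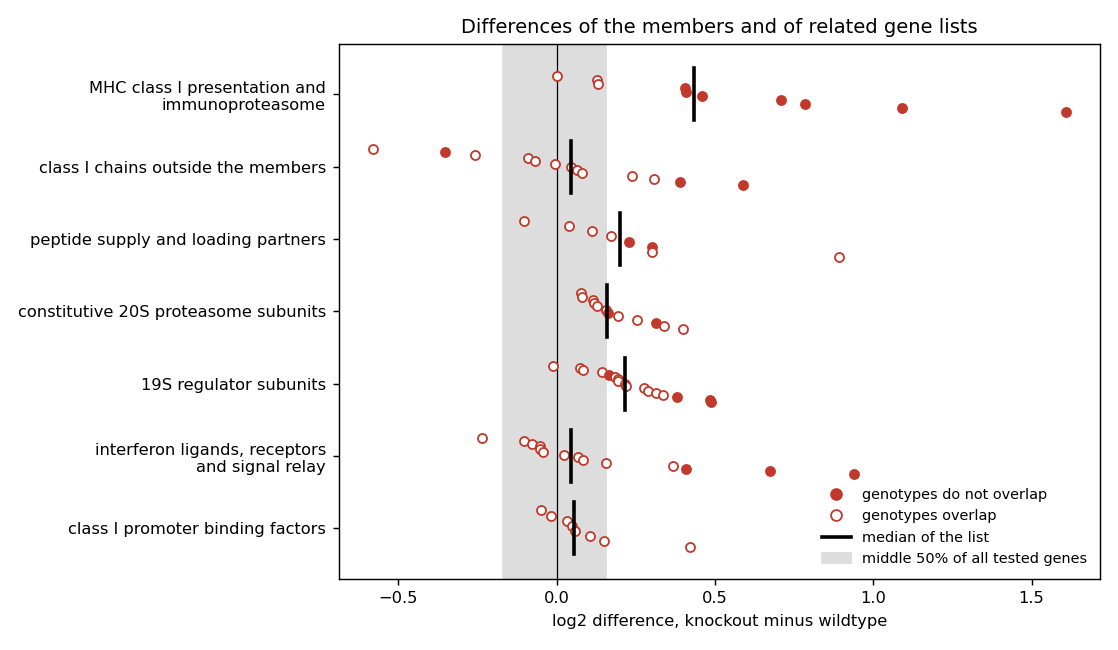
Log2 difference of each tested gene (points, knockout minus wildtype, x axis) for the 10 class I members and 6 related lists; filled points are genes whose genotypes do not overlap, black bars are list medians and the grey band is the middle 50% of all genes tested. The members' median of 0.43 is to the right of the other medians, which run from 0.046 to 0.22. The members and the lists were chosen with earlier results of these data known.

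Background handling changed some members more than others. The differences of Nlrc5, Tap1 and Psmb8 were 0.76, 0.56 and 0.46 in the authors' processed table, while B2m stayed at 0.41. Tapbp changed sign between settings.

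**Figure D4:**
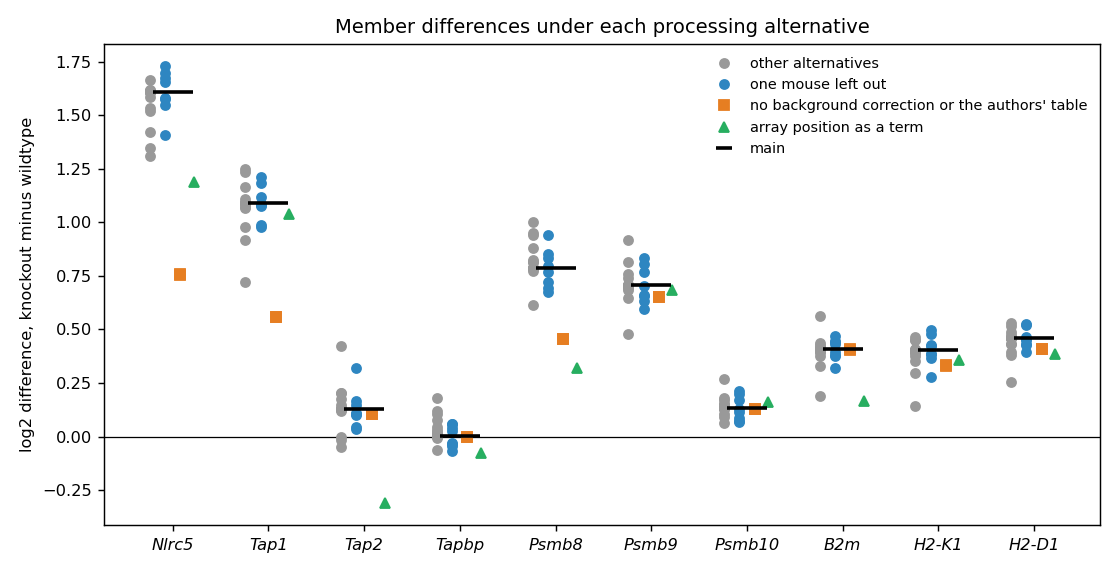
Log2 difference of each gene (y axis, knockout minus wildtype) as reported (black bar) and under each alternative (symbols). Without background correction, or in the authors' table, Nlrc5, Tap1 and Psmb8 are smaller, and the differences of Tapbp stay around 0.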

How the data were processed

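RNA of 8 whole colons was amplified by Illumina TotalPrep and carried a Cy3 label, per the labels' protocols. The deposited table holds, per the file headers, a mean signal intensity on a linear scale and a detection p-value for each probe and array. Per the submitters' processing notes GenomeStudio was used, in an unstated version. The authors' processed intensity values, whose making is not stated, match a quantile normalization of the raw values to within 0.0278 on the log2 scale and served as an alternative. All columns were tied to samples, and 0 were left unused. Probes were named from the platform annotation (23978 with 1 symbol, 1719 with none). No genome build applies to the values.

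Raw intensities were background corrected by normexp from the detection p-values, offset by 16, quantile normalized and logged (log2) by the neqc function of limma 3.58.1 under R 4.3.3. The offset shrinks differences of dim probes. A probe was tested if its detection p was below 0.05 on 4 or more of the 8 arrays. The model was fitted with lmFit and eBayes, with genotype as the only term and Benjamini-Hochberg adjustment over 14754 probes. For a gene with several probes the one with the highest mean was used. The fit was tested on simulated data. The precision is limited by 4 arrays per genotype.

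The members and the related lists were chosen with earlier results of these data known. Named genes are the members, Ihh, the replaced proteasome subunits, the up to 4 genes of each list with the smallest p, and the 5 genes most like the members over the arrays. Sequence windows are RefSeq's. Titles number mice 1 to 4 in each genotype. With genotype means removed, same-numbered mice had correlations of -0.18 to 0.21. The best match was the same-numbered mouse for numbers 1 and 2, and not for 3 and 4. No pairing was used in the main fit, and the replicate number served as a block in an alternative.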

Additional observations from a re-analysis of the deposited data

Results flagged for a closer look

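Nlrc5 in wildtype 2 stood apart from the other wildtype colons. Its log2 intensity was 5.64, against 6.38 to 6.51 in the other 3, and its gap to the nearest of them was 0.850 of the group's range, above Dixon's critical value of 0.829 for 4 samples. Of 20 gene and genotype groups examined this was the 1 past that value, and chance gives about 1 in 20. The probe was close to background on that array (raw intensity 189, with a detection p-value of 0.0351, under the limit of 0.05). Without wildtype 2 the Nlrc5 difference was 1.41 (limma adjusted p = 0.109).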

How the results depend on the processing

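The median difference of the members was 0.38 to 0.51 with each mouse left out and 0.34 to 0.47 under the other alternatives but 2. These, chosen after seeing the data, gave 0.22 in the mice with a female pattern alone and 0.55 in those with a male pattern alone. The number of members without overlap was 6 to 8. Limma called 0 members under all alternatives except without knockout 1, where it called 1 (range 0 to 1). The number of probes called in all, 2 as reported, was 0 without background correction, in the authors' table, with a detection p under 0.01 on all arrays, with array position or sex as a term, and in the mice of low skeletal muscle markers, of a female or of a male pattern alone. It was 1 with a trended and robust variance prior and 1 when all probes of a gene were averaged, and 0 to 14 with each mouse left out. With the replicate number as a block 0 probes and 0 members were called. With array position as a term Nlrc5 differed by 1.19 and Tap1 by 1.04 (limma adjusted p = 0.985 for each). The filter at a detection p of 0.01 removed Nlrc5 itself. Of 249 member differences under alternatives 236 were above 0. The rest belonged to Tapbp and Tap2, neither called in any setting. Tapbp was at -0.0013 without background correction, -0.0053 with cyclic loess, -0.0012 in the authors' table, -0.075 with array position and -0.065 with the T and NK cell score. Left-out mice gave Tapbp -0.070 to 0.060. Tap2 was at -0.31 with array position, -0.047 with the T and NK cell score, -0.0038 in the mice of low skeletal muscle markers and -0.015 in those of a female pattern. Medians of related lists turned with array position for 19S subunits (-0.039) and promoter binding factors (-0.045). That of the other class I chains turned to -0.040 with the T and NK cell score, -0.0053 in the male pattern mice, and was -0.070 to 0.13 with each mouse left out. The log2 ratio of Psmb10 to Psmb7 ran from -0.29 to 0.091 with each mouse left out, that of Psmb8 to Psmb5 from 0.27 to 0.60 and that of Psmb9 to Psmb6 from 0.34 to 0.68. Under the other alternatives these ran from -0.12 to -0.056, from 0.085 to 0.39 and from 0.46 to 0.51. The cause of these changes was not tested.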

Other observations

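Over the 8 arrays, the genes outside the list whose values ran most like the mean of the class I members were, by Pearson correlation, Cd79a (r = 0.97), Ifi47 (0.96), Ubfd1 (0.96), Vpreb1 (0.95) and Rbm14 (0.94), of 10174 genes compared. Ifi47 is an interferon-induced GTPase, and Cd79a and Vpreb1 belong to B cell receptor complexes. These values are a description over arrays that share the genotype split, and 25 genes had a correlation above 0.9. None of the 5 passed in limma, with differences of 0.74, 1.31, 0.34, 0.71 and 0.67 and adjusted p-values of 0.284, 0.191, 0.364, 0.373 and 0.191.

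Once each genotype's mean was removed, correlations between members had both signs, and with 8 colons each is imprecise. Over 45 pairs of members the correlation across the 8 colons had a median of 0.28 and ran from -0.62 to 0.85, as a description only. That of Nlrc5 ran from -0.58 with Tapbp to 0.55 with B2m, and was -0.012 with Tap1 and 0.42 with Psmb9. That of Tap1 ran from -0.62 with Psmb8 to 0.74 with H2-D1.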
